A study of Homo sapiens with 6 samples.

Results

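The urea cycle and arginine genes were 10 genes chosen by name among the 19903 genes listed in each library: NAGS, CPS1, OTC, SLC25A15, ASS1, ASL, ARG1, ARG2, OAT and STK11. All 10 were listed. Messenger RNA was sequenced from 3 human lung cancer cell lines, A549, H1299 and one labelled H2030, at passage 5. Each line carried a vector for malin, the product of NHLRC1, or an empty vector, with 1 library per line and vector and thus 3 libraries per vector. Nothing in the labels says that the libraries came from independent cultures, so p-values measure only the spread between these libraries. The labels give neither the promoter of the vector nor whether single clones were used.

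In the liver the urea cycle turns ammonia into urea. NAGS makes N-acetylglutamate, which activates CPS1, the mitochondrial enzyme that joins ammonia and bicarbonate into carbamoyl phosphate. OTC adds carbamoyl phosphate to ornithine, which SLC25A15 carries into mitochondria, and the citrulline formed is turned into arginine by ASS1 and ASL in the cytosol. Arginine is split into urea and ornithine by ARG1, the liver arginase, or ARG2, the mitochondrial arginase, and OAT links ornithine to proline and glutamate. STK11 encodes LKB1, a kinase that activates AMPK. A549 and H2030 are known as LKB1-mutant lines and H1299 as LKB1-proficient, and CPS1 is known from LKB1-deficient lung cancers, where it supplies carbamoyl phosphate for pyrimidine synthesis.

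NHLRC1 was higher with malin in each line. It stood at 6.82 FPKM with malin and 1.21 FPKM with empty vector in A549, 119.2 and 2.85 FPKM in H1299, and 3.69 with malin and 0.18 with empty vector in the libraries labelled H2030. The data column of the last malin library is headed with a short form of HEK293T, an embryonic kidney line, although its labels name H2030. The column of its empty-vector partner names H2030. That pair is called the libraries labelled H2030 throughout, and in it a vector difference cannot be told apart from a difference of cell line. Its 8 embryonic kidney markers summed to 38.4 FPKM with malin and 33.9 FPKM with empty vector, against 7.86 to 14.7 FPKM in the other 4 libraries. Its 10 lung and epithelial markers summed to 163.1 and 186.4 FPKM, against 952.9 to 3917 FPKM, sums made up mostly of the keratins KRT7, KRT8 and KRT18. Other epithelial markers did not follow the sum: EPCAM stood at 5.41 FPKM with malin and 8.55 FPKM with empty vector in that pair, against 0.17 to 1.75 FPKM elsewhere, and CDH1 at 2.71 and 2.56 FPKM, against 0 to 3.27 FPKM. The lung surfactant genes SFTPB and SFTPC were at most 0.11 FPKM in every library. NKX2-1, a lung lineage transcription factor, was listed at 0 in A549 and stood at 0.60 FPKM with malin and 0.77 FPKM with empty vector in H1299 and 3.78 and 1.85 FPKM in those labelled H2030. Estimated depth was 8300000 to 10700000 fragments per library. FPKM scales fragments to transcript length and to the library's total, so levels are per length and can be set side by side between genes.

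OTC, ARG1 and NAGS were listed at 0 or were low in every library, as the plot of FPKM in each library shows. OTC (chromosome X, 38352545 to 38421450, plus strand; positions here and below are whole genes in GENCODE release 29 on GRCh38) was listed at 0 in both A549 and both H1299 libraries. It stood at 0.07 FPKM with malin and 0.08 FPKM with empty vector in the libraries labelled H2030, about 1 estimated fragment each. In the 4 libraries at 0, 1 fragment would have been listed at 0.0629 to 0.068 FPKM, and a count of 0 allows up to 3 fragments, or 0.189 to 0.204 FPKM, by counting error alone. ARG1 (chromosome 6, 131573144 to 131584332, plus strand) was listed at 0 in 5 libraries and at 0.09 FPKM in the empty-vector library labelled H2030. It overlaps MED23 on the opposite strand, and the sources used here do not say whether counting used strand. NAGS (chromosome 17, 44004546 to 44009063, plus strand) reached 0.34 FPKM with malin and 0.10 FPKM with empty vector in A549, 1.03 and 1.29 FPKM in H1299, and 0.78 and 0.43 FPKM in those labelled H2030. These NAGS values rest on 2.14 to 28.7 estimated fragments. NAGS was listed highest in H1299 and lowest in A549, and the ranges of the 3 lines did not overlap. The A549 malin library and the empty-vector library labelled H2030 rested on 7.36 and 7.43 estimated fragments, so their order lies within counting error. For this and the other members, the share of all genes whose line ranges do not overlap was not counted. With malin it was higher in A549 and in the libraries labelled H2030 and lower in H1299. NAGS, OTC and ARG1 fell below the mean of 1 FPKM required for testing, so 7 of the 10 genes were tested.

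CPS1 (chromosome 2, 210477682 to 210679107, plus strand) stood at 5.85 FPKM with malin and 8.18 FPKM with empty vector in A549, 0.20 and 0.15 FPKM in H1299, and 1.07 and 2.15 FPKM in those labelled H2030. A549 was highest and H1299 lowest with either vector, and the ranges of the lines did not overlap. In bulk RNA, fewer cells expressing a gene and less RNA per cell cannot be told apart. Hepatocyte markers were near 0 beside this: the 12 genes summed to 4.51 to 14.8 FPKM per library, with ALB at most 0.39, APOB at most 0.03 and TTR at most 0.12 FPKM, and 1 to 7 of the 12 were listed at 0. HNF4A, a transcription factor of hepatocytes and gut epithelium, was at 2.44 FPKM with malin and 2.53 FPKM with empty vector in A549 and listed at 0 in the other 4 libraries. Its part in the CPS1 level was not tested.

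**Figure D1:**
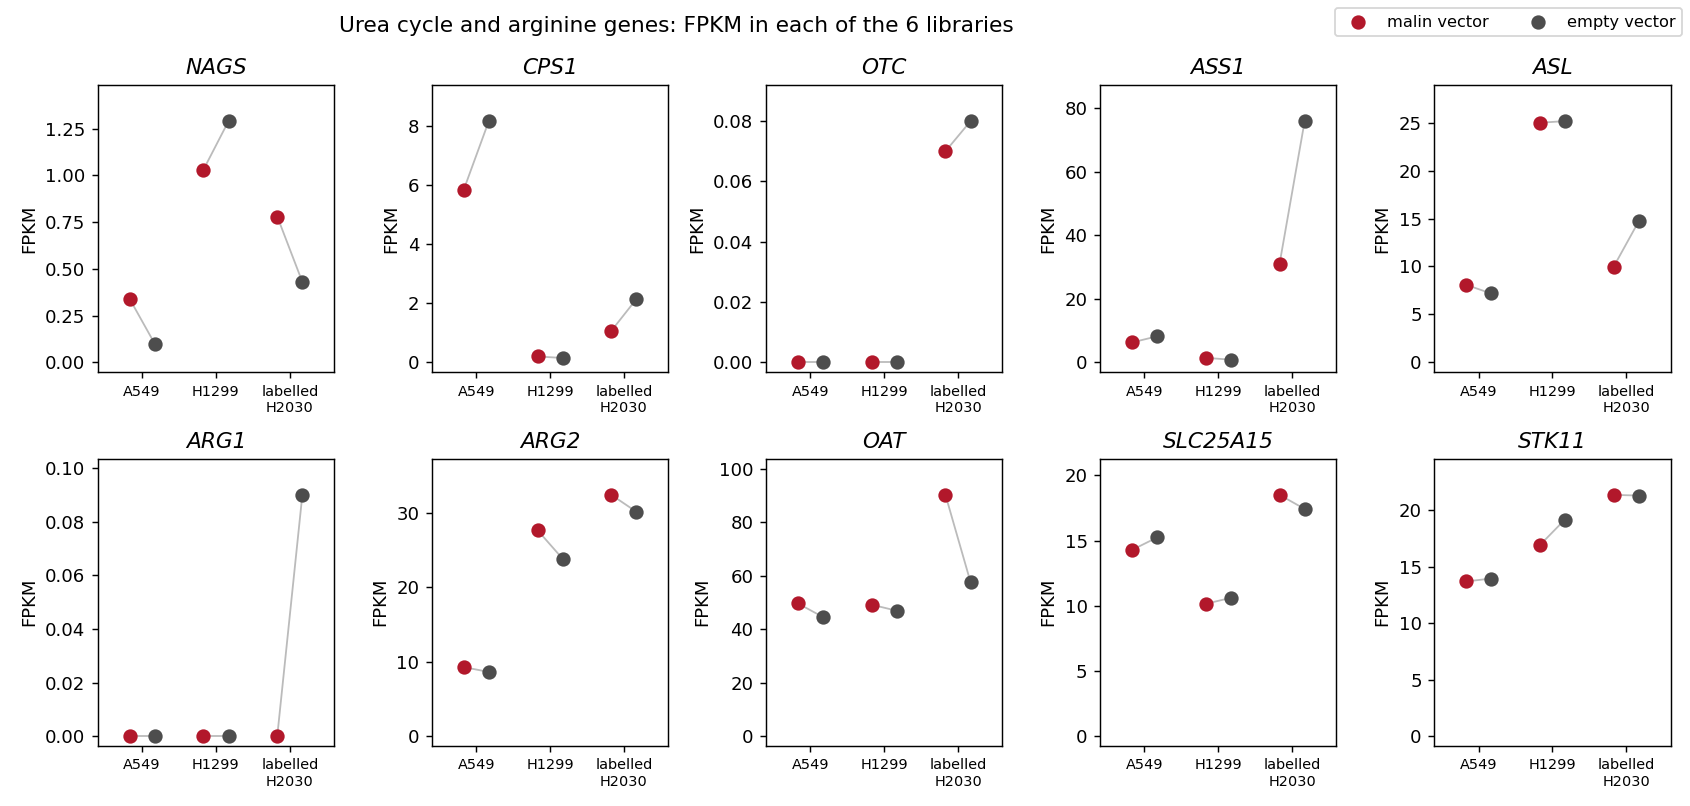
FPKM (vertical axes, linear, a scale for each gene) of the 10 genes by cell line (horizontal axes), with red points for malin libraries and grey points for empty-vector libraries, joined within a line. CPS1 is highest in A549, ASS1 in the libraries labelled H2030 and ASL in H1299, and OTC and ARG1 lie at or below 0.09 FPKM in every library.

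The promoter windows of CPS1, OTC and ARG1 are shown because they differed in base composition from those of the other members. Windows run from 250 bases before to 50 bases after the start given by RefSeq on GRCh38.p14. CPS1 has 3 RefSeq starts, and starts 1 and 3, which lie within 200 bases of GENCODE starts of transcripts named in the files, are printed. The GENCODE start of another CPS1 transcript named there has no window near it, so CG dinucleotides and motifs at that start were not read. Capitals mark motif matches, of which these CPS1 windows have none.
CPS1, start 1, chr2:210477435-210477734, plus strand: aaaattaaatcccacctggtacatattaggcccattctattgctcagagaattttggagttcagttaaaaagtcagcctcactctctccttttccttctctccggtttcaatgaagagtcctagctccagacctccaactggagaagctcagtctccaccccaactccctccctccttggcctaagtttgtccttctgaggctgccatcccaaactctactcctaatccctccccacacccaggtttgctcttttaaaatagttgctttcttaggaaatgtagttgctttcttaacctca
CPS1, start 3, chr2:210593105-210593404, plus strand: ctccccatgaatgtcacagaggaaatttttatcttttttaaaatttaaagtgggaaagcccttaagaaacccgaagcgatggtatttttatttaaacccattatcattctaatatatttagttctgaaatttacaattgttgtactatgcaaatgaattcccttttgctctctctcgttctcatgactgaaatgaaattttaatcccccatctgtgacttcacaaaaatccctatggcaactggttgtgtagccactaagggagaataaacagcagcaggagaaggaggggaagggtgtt
OTC, chrX:38352354-38352653, plus strand: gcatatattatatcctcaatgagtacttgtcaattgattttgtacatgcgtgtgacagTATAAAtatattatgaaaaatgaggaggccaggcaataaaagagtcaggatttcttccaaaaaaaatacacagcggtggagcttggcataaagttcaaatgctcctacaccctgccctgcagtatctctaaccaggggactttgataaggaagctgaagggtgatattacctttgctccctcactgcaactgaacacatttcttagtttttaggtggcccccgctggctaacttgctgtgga
ARG1, chr6:131572976-131573275, plus strand: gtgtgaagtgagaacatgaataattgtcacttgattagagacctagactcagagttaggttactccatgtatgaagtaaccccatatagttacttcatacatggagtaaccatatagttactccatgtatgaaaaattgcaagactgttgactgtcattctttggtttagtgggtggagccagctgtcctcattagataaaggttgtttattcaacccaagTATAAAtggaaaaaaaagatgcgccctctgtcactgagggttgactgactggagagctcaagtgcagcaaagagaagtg
The ASS1 and ARG2 windows are printed beside them as members with many CG dinucleotides and a wide range of levels between lines.
ASS1, start 2, chr9:130444711-130445010, plus strand: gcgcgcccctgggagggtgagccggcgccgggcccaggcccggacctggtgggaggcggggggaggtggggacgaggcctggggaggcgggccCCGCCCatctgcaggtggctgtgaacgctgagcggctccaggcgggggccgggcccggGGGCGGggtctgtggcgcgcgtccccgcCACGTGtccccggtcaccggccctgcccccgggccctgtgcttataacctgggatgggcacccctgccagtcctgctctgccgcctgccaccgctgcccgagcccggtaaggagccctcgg
ARG2, chr14:67619670-67619969, plus strand: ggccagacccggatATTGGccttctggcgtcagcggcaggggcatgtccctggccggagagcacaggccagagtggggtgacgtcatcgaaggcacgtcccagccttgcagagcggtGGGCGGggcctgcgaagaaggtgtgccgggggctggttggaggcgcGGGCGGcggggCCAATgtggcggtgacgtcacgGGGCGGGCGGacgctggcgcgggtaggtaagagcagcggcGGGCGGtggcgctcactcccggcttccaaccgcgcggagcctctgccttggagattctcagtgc

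Between 1 and 3 CG dinucleotides were counted in each window of CPS1, OTC and ARG1, whereas NAGS had 15 and the windows of ASS1, ASL, ARG2, OAT, STK11 and SLC25A15 had 29 to 45. The median of 35116 RefSeq promoter windows was 14, with quartiles of 4 and 28. The GC box GGGCGG, read on both strands, was found 0 times in the CPS1, OTC and ARG1 windows and 2 to 5 times in every window of the other 7 genes, and 45% of all windows hold at least 1. The TATA box TATAAA, on either strand, began at position -29 from the ARG1 start and -192 from the OTC start, and 11.5% of windows hold it. The E-box CACGTG, which reads the same on both strands, began at position -71 from ASS1 start 2 and was also in the window of CPS1 start 2, and 7.26% of windows hold it. The CCAAT box CCAAT was matched in the window of CPS1 start 2 and in those of ASL, ARG2, OAT and STK11, and 34.6% of windows hold it. The C/EBP-ATF element TGATGNAA was in 0 of the members' windows and in 3.62% of all. No motif's letters contain another's, but GC boxes overlapped each other in ARG2 and OAT. The STK11 window and that of ASS1 start 1 lie 686 and 222 bases from the nearest GENCODE start of a transcript in the files. The window of CPS1 start 2 lies 36820 bases from the nearest such start, so its E-box and CCAAT box are far from any of them. A match describes the letters of the window, and binding was not measured.

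**Figure D2:**
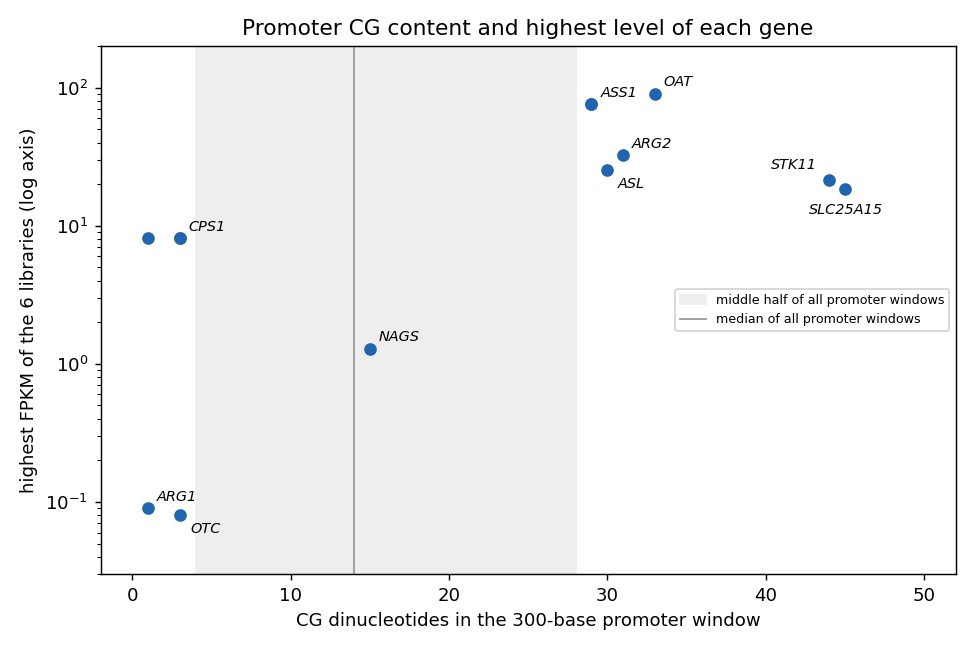
CG dinucleotides in the 300-base promoter window (horizontal axis) against the highest FPKM of the 6 libraries (vertical axis, log scale), with a point for each RefSeq start. OTC, ARG1 and CPS1 have 1 to 3 CG dinucleotides and reach at most 8.18 FPKM, while NAGS has 15 and reaches 1.29 FPKM. The grey band spans the middle of all windows between 4 and 28.

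The enzymes that make arginine from citrulline were both detected in every library, in different orders of the lines. ASS1 was low in H1299, near the mean of 1 FPKM required for testing. ASS1 (chromosome 9, 130444929 to 130501274, plus strand) stood at 6.26 FPKM with malin and 8.20 FPKM with empty vector in A549, 1.44 and 0.84 FPKM in H1299, and 31.0 and 75.9 FPKM in those labelled H2030. The lines did not overlap, with the libraries labelled H2030 highest and H1299 lowest. ASL (chromosome 7, 66075798 to 66093558, plus strand) stood at 8.09 FPKM with malin and 7.19 FPKM with empty vector in A549, 24.99 and 25.2 FPKM in H1299, and 9.97 and 14.7 FPKM in those labelled H2030. H1299, lowest for ASS1, was thus highest for ASL. ASS1 has 11 annotated pseudogenes, SLC25A15 has 5 and ASL has 1, so fragments of these genes may be split between copies.

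Of the genes of arginine breakdown, ARG2 and OAT were present in every library. ARG2 (chromosome 14, 67619798 to 67651720, plus strand) stood at 9.28 FPKM with malin and 8.63 FPKM with empty vector in A549, 27.7 and 23.9 FPKM in H1299, and 32.4 and 30.2 FPKM in those labelled H2030. A549 lay below both other lines, whose ranges were close but did not overlap. OAT (chromosome 10, 124397303 to 124418976, minus strand) had the highest level of the 10 genes in A549 and H1299, at 49.7 FPKM with malin and 44.6 FPKM with empty vector in A549 and 49.2 and 46.9 FPKM in H1299. It reached 90.3 with malin and 57.6 with empty vector in the libraries labelled H2030, where ASS1 exceeded it with the empty vector only. The A549 and H1299 ranges of OAT overlapped, and those labelled H2030 lay above both.

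SLC25A15 and STK11 varied least between libraries. SLC25A15 (chromosome 13, 40789412 to 40810111, plus strand) stood at 14.3 FPKM with malin and 15.2 FPKM with empty vector in A549, 10.2 and 10.6 FPKM in H1299, and 18.5 and 17.4 FPKM in those labelled H2030. STK11 (chromosome 19, 1177558 to 1228435, plus strand) stood at 13.7 FPKM with malin and 13.9 FPKM with empty vector in A549, 16.9 and 19.2 FPKM in H1299, and 21.3 and 21.3 FPKM in those labelled H2030. STK11 messenger RNA was thus present in every library, and its order did not follow that of CPS1. STK11 overlaps CBARP, ARG2 overlaps VTI1B, and OTC overlaps the pseudogene TDGF1P1, on the opposite strand. On the same strand ASL overlaps AC068533.4 and OTC overlaps AF241726.2, both annotated as protein coding. STK11 also overlaps the pseudogene HMGB2P1, and CPS1 overlaps CPS1-IT1, on the same strand. How fragments from shared stretches were assigned was not tested.

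Which of these genes differed between malin and empty vector was tested with limma on log2(FPKM+1) over the 3 lines, a scale that understates changes of low genes. Of the 7 genes tested, 0 passed an adjusted p of 0.05, as did 0 of 12182 protein-coding genes (percent called 0). NHLRC1 itself did not pass, at a log2 difference of 2.93 (limma adjusted p = 0.9275). The count of 0 therefore cannot show that malin changed no gene. At an unadjusted p under 0.05 there were 0 of the 7 and 213 (1.75%) of all genes. The largest mean differences were those of ASS1, -0.40 ± 0.30 (limma SE, n = 3 pairs; 95% interval -1.13 to 0.33; limma adjusted p = 0.927), and CPS1, -0.32 ± 0.16 (interval -0.71 to 0.07; limma adjusted p = 0.927). OAT had 0.29 ± 0.13 (interval -0.02 to 0.60; limma adjusted p = 0.927). Without the libraries labelled H2030 OAT stood at 0.11 and CPS1 at -0.18, and without H1299 CPS1 stood at -0.51. An exact paired permutation test over 3 pairs cannot go below a p of 0.25. With A549 and H1299 alone SULT1A3 was the 1 gene that passed, at a log2 difference of -2.11 (limma adjusted p = 0.0178); it was named after its values were seen, and it has a near-identical copy, with 491 genes at an unadjusted p under 0.05.

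Within the lines the members moved differently. Among the 7 tested genes the log2 differences of malin minus empty vector in A549 ran between -0.42 for CPS1 and 0.15 for OAT, and in H1299 between -0.17 for STK11 and 0.41 for ASS1. Past 1.5-fold on the FPKM+1 scale there were 0 of the 7 in A549, where 0.542% of all genes were higher and 0.583% lower, and 0 of the 7 in H1299, where 0.328% were higher and 0.148% lower. In the libraries labelled H2030 OAT was higher by 0.64, and ASS1 and CPS1 were lower by 1.27 and 0.61, so 1 of the 7 was past 1.5-fold higher and 2 were past it lower. In that pair 4.28% of all genes were past 1.5-fold higher and 7.33% lower, and the SD over all genes was 0.40, beside 0.18 in A549 and 0.16 in H1299. Past 2-fold there was ASS1 alone, in the libraries labelled H2030, where 0.484% of all genes were that much higher and 1.6% lower. The 2-fold shares of all genes were 0.0493% higher and 0.0657% lower in A549, and 0.0575% higher and 0.0246% lower in H1299. ARG2 was higher with malin in 3 of 3 lines, by 0.09, 0.21 and 0.10 in A549, H1299 and the libraries labelled H2030, and OAT was higher in 3 of 3, by 0.15, 0.07 and 0.64. Of all genes, 11% were higher in all 3 lines and 11.3% were lower. CPS1 and ASS1 were lower with malin in A549 and in the libraries labelled H2030 and higher in H1299. With 1 library per vector, none of these within-line differences has a replicate check. Those in the libraries labelled H2030 also cannot be told apart from a difference of cell line, because the column header of the malin library names another line.

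**Figure D3:**
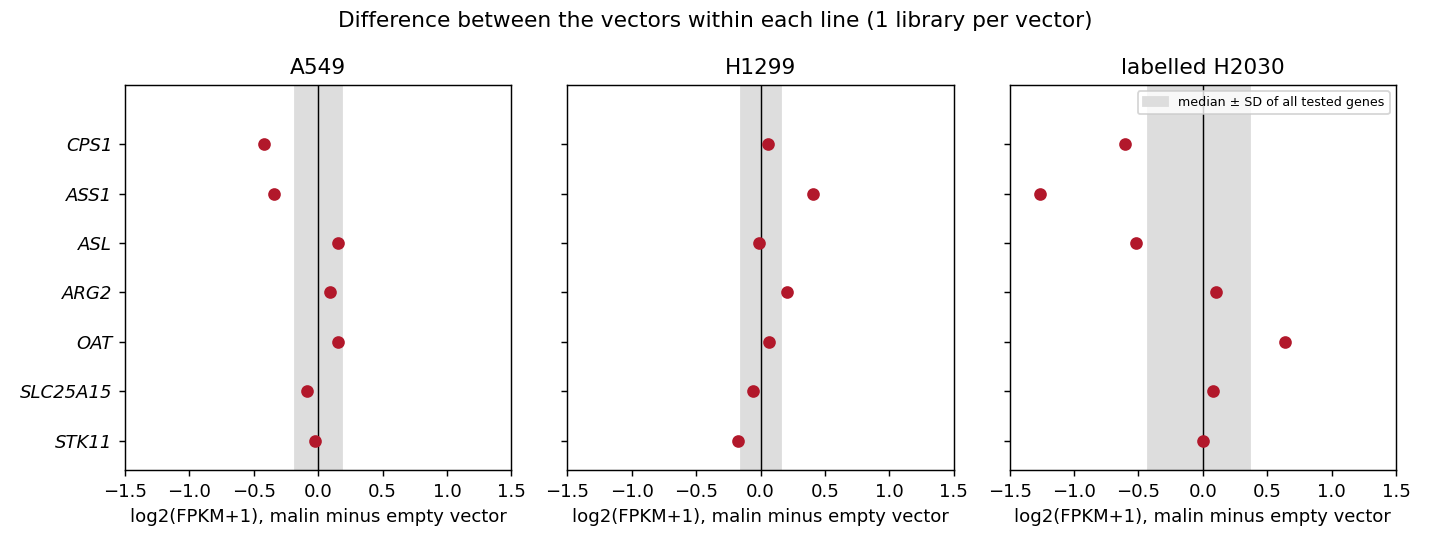
Log2(FPKM+1) of the malin library minus the empty-vector library (horizontal axes) for the 7 tested genes in A549, H1299 and the libraries labelled H2030. The grey band is the median ± SD of all 12182 tested genes, and ASS1, at -1.27, lies farthest from 0 in the libraries labelled H2030.

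Beside the lower ASS1 in the malin library labelled H2030, genes of amino-acid supply lay in both directions in that pair. ASNS, asparagine synthetase, stood at 106.2 FPKM with malin and 341.7 FPKM with empty vector, against 55.9 to 68.6 FPKM in the A549 and H1299 libraries. SLC3A2, the heavy chain of several amino-acid transporters, stood at 102.7 and 279.4 FPKM, and its partner SLC7A5 at 59.7 and 112.9 FPKM. SLC7A1, a cationic amino-acid transporter that imports arginine, stood at 30.1 and 70.98 FPKM, and PYCR1, which makes proline, at 86.98 and 144.7 FPKM. Higher with malin were GLUL, glutamine synthetase, at 91.9 and 50.7 FPKM, SLC7A2, another cationic amino-acid transporter, at 14.8 and 8.87 FPKM, and PYCRL, an enzyme of proline synthesis, at 23.1 and 13.9 FPKM. Of the 9 tested transport genes 3 were past 1.5-fold lower and 1 higher in that pair, and of the 11 tested proline, glutamate and glutamine enzymes 2 were lower and 2 higher, where 4.28% of all genes were past it higher and 7.33% lower. In A549 and H1299 the differences of ASNS were -0.20 and 0.0079, and those of SLC7A1 were 0.07 and -0.11. Whether these genes and ASS1 share a cause was not tested.

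The lines were compared with the vector as a term, which treats the malin and the empty-vector library of a line as its 2 libraries. For the libraries labelled H2030 the average may mix 2 cell lines, because the column header of the malin library names another line. The spread was estimated from all libraries together, so that pair also enters the standard errors of A549 against H1299. Between A549 and H1299, CPS1 averaged 7.02 FPKM in A549 and 0.175 FPKM in H1299, a ratio of 40.1 and a log2 difference of 2.76 ± 0.20 (limma SE; limma adjusted p = 0.00014). With a pseudocount of 0.1 or 5 in place of 1 the CPS1 difference was 4.68 or 1.21. ASS1 was higher by 1.95 ± 0.36 (limma adjusted p = 0.00502; 0.99 with a pseudocount of 5) and SLC25A15 by 0.47 ± 0.11 (limma adjusted p = 0.0135). Lower in A549 were ASL, with a difference of -1.60 ± 0.18 (limma adjusted p = 0.000727), ARG2 with -1.42 ± 0.10 (limma adjusted p = 0.000156) and STK11 with -0.36 ± 0.11 (limma adjusted p = 0.0312). OAT did not pass, at -0.03 with a 95% interval of -0.41 to 0.35, a sign that turned under both other scalings. In all, 6 of the 7 genes passed, 3 higher and 3 lower, where 61.6% of all genes passed, 27.2% higher and 34.5% lower. With most genes called, such a count is not a result about these members. STK11 missed the threshold under median-of-ratios scaling (limma adjusted p = 0.0852), quantile normalization (limma adjusted p = 0.055) and without any 1 of the A549 and H1299 libraries (limma adjusted p 0.127 to 0.299), and SLC25A15 missed it without any 1 of them (limma adjusted p 0.0918 to 0.155). The count of all genes called was 7508, and 4559 to 4823 without 1 of these 4 libraries. In a fit of A549 and H1299 alone 9371 genes and 6 members passed.

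Against the libraries labelled H2030, A549 had higher CPS1 and lower levels of most other members. CPS1 averaged 7.02 FPKM in A549 and 1.61 FPKM in those labelled H2030, a log2 difference of 1.63 ± 0.20 (limma SE; limma adjusted p = 0.000688; 0.86 with a pseudocount of 5). ASS1 averaged 7.23 FPKM in A549 and 53.5 FPKM in those labelled H2030, a difference of -2.60 ± 0.36 (limma adjusted p = 0.00131). ARG2 had a difference of -1.70 ± 0.10 (limma adjusted p = 6.59e-05). ASL, OAT and STK11 were lower in A549 by 0.61, 0.61 and 0.59 on the log2 scale (limma adjusted p = 0.0257, 0.0145 and 0.00419). SLC25A15 did not pass, at -0.27 (interval -0.55 to 0.01; limma adjusted p = 0.0803), a sign that turned under median-of-ratios scaling. In all, 6 of 7 passed, 1 higher and 5 lower, where 67% of all genes passed, 22.1% higher and 45% lower. The libraries labelled H2030 had more genes at 1 FPKM or more, 12992 with malin and 13179 with empty vector, against 11861 to 12039 in the other 4. Median-of-ratios scaling moved the median of all genes by 0.31 in this comparison, and the share of calls that were higher was 32.9% as deposited and 52.8% after it. Under it 3 of 7 members passed (CPS1, ASS1 and ARG2, where 64.7% of all genes passed), and ASL, OAT and STK11 did not, with differences of -0.27, -0.25 and -0.24 (limma adjusted p = 0.195, 0.239 and 0.111). The difference of ASL was -0.31 without the empty-vector library labelled H2030, and that of OAT was -0.34 without the malin library of that pair, both past the threshold. Quantile normalization moved the median by 0.21, gave 45.1% of calls higher, and lost ASL at -0.38 (limma adjusted p = 0.111). Without the A549 empty-vector library 3 members passed, with ASL, OAT and STK11 again missing the threshold (limma adjusted p = 0.223, 0.05004 and 0.0617), and without the A549 malin library OAT missed it (limma adjusted p = 0.122). ASL also missed it with no filter on low values and without 1 or both H1299 libraries (limma adjusted p 0.05225 to 0.0587). SLC25A15 passed without the empty-vector library labelled H2030 (limma adjusted p = 0.0248).

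H1299 had the lowest ASS1 and CPS1 and the highest ASL. ASS1 averaged 1.14 FPKM in H1299 and 53.5 FPKM in those labelled H2030, a ratio of 0.0213 and a log2 difference of -4.55 ± 0.36 (limma SE; limma adjusted p = 0.000168), the widest of any member in the 3 line comparisons. CPS1 had a difference of -1.12 ± 0.20 (limma adjusted p = 0.00337; -2.57 and -0.35 with pseudocounts of 0.1 and 5), SLC25A15 of -0.74 ± 0.11 (limma adjusted p = 0.00206) and OAT of -0.58 ± 0.15 (limma adjusted p = 0.0179). ASL was higher in H1299, with 25.1 FPKM on average against 12.3 FPKM and a difference of 0.99 ± 0.18 (limma adjusted p = 0.00399). ARG2 at -0.27 (interval -0.53 to -0.02; limma adjusted p = 0.0599) and STK11 at -0.23 (interval -0.50 to 0.04; limma adjusted p = 0.11) did not pass, and the sign of STK11 turned under median-of-ratios scaling. In all, 5 of 7 passed, 1 higher and 4 lower, where 64.7% of all genes passed, 23.8% higher and 40.9% lower. Median-of-ratios scaling moved the median of all genes by 0.23 and the share of calls that were higher to 51.7%, against 36.8% as deposited, and OAT was lost at -0.31 (limma adjusted p = 0.153), while SLC25A15 passed at -0.48. Quantile normalization moved the median by 0.17 and the share to 46.9%, and CPS1 was lost at -0.50 (limma adjusted p = 0.0629). Without the H1299 malin library OAT was lost (limma adjusted p = 0.177), and without the malin library labelled H2030 it passed at -0.31. ARG2 passed without the malin library labelled H2030 (limma adjusted p = 0.0345), and STK11 without the empty-vector library of that pair (limma adjusted p = 0.0479). Without the H1299 empty-vector library 5226 genes passed, against 7877 with all libraries.

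**Figure D4:**
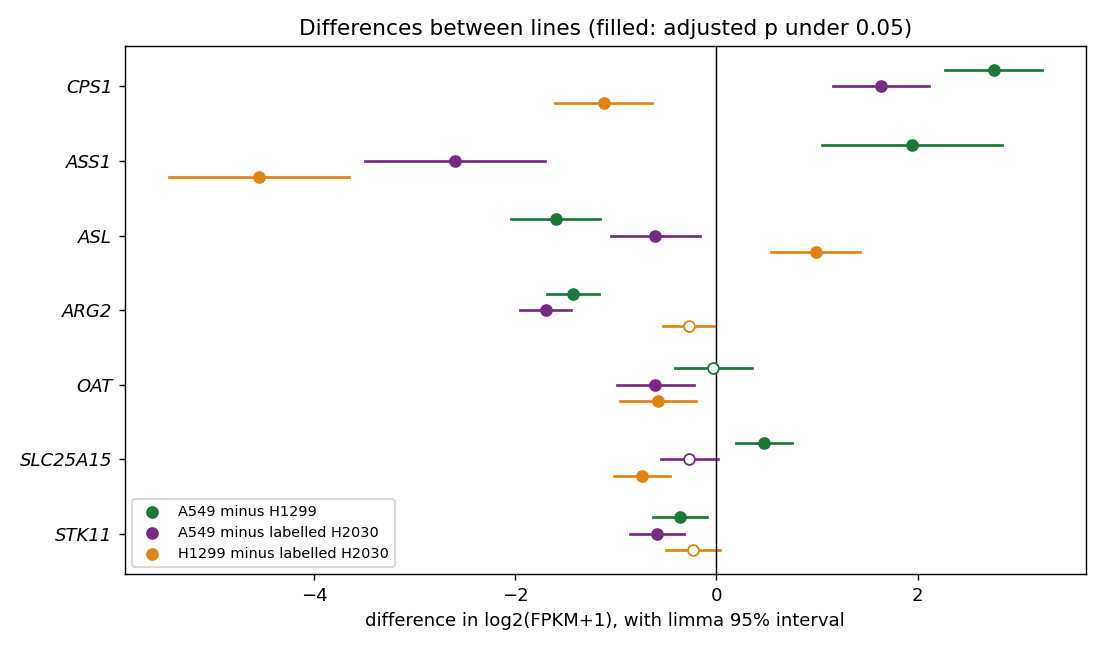
Log2 difference between lines (horizontal axis) of the 7 tested genes, with points for the limma estimate and bars for its 95% interval, filled where the limma adjusted p is under 0.05 and open otherwise. CPS1 lies to the right in both A549 comparisons, and ASS1 runs between 1.95 for A549 minus H1299 and -4.55 for H1299 minus the libraries labelled H2030.

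Genes of the same pathways were counted in lists written with earlier results of these data known, and the shares of all genes called, in the order of the counts given for each list, were 61.6%, 67% and 64.7%. The polyamine list, which starts from the ornithine that arginase releases, had 12 genes tested, and 3 were higher and 6 lower in A549 than in H1299, 5 and 6 in A549 than in the libraries labelled H2030, and 3 and 3 in H1299 than in the libraries labelled H2030. SMOX, spermine oxidase, stood at 65.7 FPKM with malin and 70.3 FPKM with empty vector in A549, 8.39 and 7.19 FPKM in H1299, and 4.07 and 6.96 FPKM in those labelled H2030. SMS, spermine synthase, stood at 121.3 and 109.7, 299.3 and 311.8, and 81.6 and 99.9 FPKM in the same order, highest in H1299. Both were higher in A549 than in the libraries labelled H2030 (log2 differences 3.44 and 0.35; limma adjusted p = 6.18e-05 and 0.0423), SMS not under quantile normalization. Of the 11 tested proline, glutamate and glutamine enzymes, 5 were higher and 3 lower in A549 than in H1299, 1 and 6 than in the libraries labelled H2030, and 1 and 7 in H1299 than in the libraries labelled H2030. GLUL was lower in A549 than in the libraries labelled H2030 by 3.58 on the log2 scale (limma adjusted p = 0.000109). Of the 9 tested transport genes, 2 were higher and 3 lower in A549 than in H1299, 2 and 3 than in the libraries labelled H2030, and 1 and 4 in H1299 than in the libraries labelled H2030. SLC7A5 stood at 518.2 FPKM with malin and 501.7 FPKM with empty vector in A549 and at 49.1 and 53.1 FPKM in H1299 (log2 difference 3.29; limma adjusted p = 0.000125). Under median-of-ratios scaling the polyamine, proline and transport counts in A549 against the libraries labelled H2030 were 6 higher and 4 lower, 3 and 5, and 4 and 3, and those in H1299 against that pair were 4 and 1, 2 and 7, and 2 and 3. Between malin and empty vector 0 genes of these 3 lists passed (limma).

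The LKB1 list held partners and kinase substrates of the STK11 product, all 21 tested. Of these, 6 were higher and 7 lower in A549 than in H1299, 5 and 11 than in the libraries labelled H2030, and 6 and 8 in H1299 than in the libraries labelled H2030, near the 61.6%, 67% and 64.7% of all genes called. The median log2 difference of the list was -0.19, -0.36 and -0.11, beside -0.09, -0.29 and -0.22 for all genes tested. SIK1, a salt-inducible kinase, stood at 56.0 FPKM with malin and 58.4 FPKM with empty vector in A549, was listed at 0 in both H1299 libraries, and stood at 2.82 and 2.49 FPKM in those labelled H2030. It has a near-identical copy, SIK1B, so its values are uncertain. BRSK2, a neuronal AMPK-related kinase, stood at 2.70 and 2.76, 0.26 and 0.31, and 13.8 and 14.9 FPKM in the same order. STRADA, the pseudokinase partner of LKB1, stood at 12.8 to 16.8 FPKM in all libraries and passed between no lines as deposited, but passed between H1299 and the libraries labelled H2030 under median-of-ratios scaling. Under that scaling the list counts were 7 higher and 7 lower, 5 and 6, and 8 and 8 in the same order of comparisons. Between malin and empty vector 0 of the 21 passed.

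Genes whose levels followed a member were named by Pearson's r of log2(FPKM+1) over the 6 libraries, which share 3 lines, so each r is a description. Genes were compared only if their range over the libraries was wide enough beside that of the member. The number compared thus differs between members, and the counts do not come from a common gene set. CPS1 was compared with 4239 genes, of which 15 reached an r of 0.99. The closest were HEXIM1, ENO3, STRA6, FAM20C and SULT2B1, at 0.995 to 0.998. HEXIM1, an inhibitor of the elongation kinase P-TEFb, stood at 31.6 FPKM with malin and 37.7 FPKM with empty vector in A549, 11.4 and 11.1 FPKM in H1299, and 16.9 and 19.4 FPKM in those labelled H2030. ASS1 was closest to DGCR6, H1F0 and H2AFY2, ASL to PITPNC1, CDKN2D and MEPCE, and ARG2 to PDK2, PLEKHJ1 and WDR19. SLC25A15 was closest to ATP5C1, KIAA1549 and FEN1, OAT to USP46, FUNDC1 and PDE3B, and STK11 to SACM1L, TRAPPC5 and GPR137C. For OAT 1 of 11093 genes reached 0.99, and for ARG2 79 of 8190.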

How the data were processed

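The authors deposited FPKM values per gene for each library, a unit given per the file headers. Build hg38 and the tools STAR, Cufflinks, FastQC and cutadapt are listed per the submitters' processing notes, without versions. No counts were used, and the sources used here do not state strand use. Since FPKM is relative to a library's total, abundant genes can shift all others.

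Gene types came from RefSeq (GRCh38.p14; 19770 of 19903 genes matched, 17537 protein coding). Symbols that were blank or dates (26) were replaced by Entrez identifier. Promoters were RefSeq GRCh38.p14 windows. The spacing of low FPKM values gave an estimate of depth from single-transcript genes: 80.6% to 82% lay within 0.2 of whole fragments.

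log2(FPKM+1) of the 12182 protein-coding genes with a mean of at least 1 FPKM was fitted in limma 3.58.1 (R 4.3.3; line and vector as terms, intensity trend, Benjamini-Hochberg, threshold 0.05), after tests on simulated data. The line is the replicate block, because the same replicate number marks the same cell line. The fit has 2 residual degrees of freedom.

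Members and lists were chosen with earlier results of these data known. Named genes were all members; from each list up to 4 by vector difference and up to 4 by line range, with those described taken from these; and the 5 (CPS1) or 3 genes most like a member. Among other list genes, ALB, APOB, TTR, HNF4A, NKX2-1, SFTPB, SFTPC, EPCAM, CDH1, the keratins, PYCRL, CAD and STRADA were named after their values were seen. A gene that the rule selects is not reported here. Alternatives tried were no filter or a filter at 5 FPKM, a pseudocount of 0.1 or 5, median-of-ratios scaling, quantile normalization, no trend, no block, no vector term, and leaving out each line or library. Figures used Python 3.11.15 and matplotlib 3.10.9.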

Additional observations from a re-analysis of the deposited data

Results flagged for a closer look

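Among the 7 tested members, ASS1, CPS1 and ASL had malin minus empty-vector differences in opposite directions in different lines. These lay at least 1.5-fold apart on the FPKM+1 scale, each from 1 library per vector, and the difference between lines was not tested. The share of all genes that meet this rule was not counted, so how many members meet it is not a result about them. For ASS1 the log2(FPKM+1) difference was -0.34 in A549 and 0.41 in H1299, a gap of -0.75. Between H1299, at 0.41, and the libraries labelled H2030, at -1.27, the gap was 1.67. For CPS1 it was 0.06 in H1299, at 0.20 FPKM with malin and 0.15 FPKM with empty vector, and -0.61 in the libraries labelled H2030, a gap of 0.67. For ASL it was 0.15 in A549 and -0.52 in the libraries labelled H2030, a gap of 0.67. Over all genes these differences had an SD of 0.18 (A549), 0.16 (H1299) and 0.40 (libraries labelled H2030). In the libraries labelled H2030 a vector difference cannot be told apart from a difference of cell line.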

How the results depend on the processing

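Between malin and empty vector, 0 members passed limma in any alternative run, and 0 genes passed without the replicate block (the pairing by line). Leaving out each line gave 0 to 1 genes called. Leaving out each line put the mean log2 difference of ASS1 between -0.80 and 0.033, that of ASL between -0.26 and 0.071, both above 0 without the libraries labelled H2030, and that of SLC25A15 between -0.073 and 0.012, above 0 without A549. Between A549 and H1299 the OAT difference, main value -0.03, turned to 0.063 with median-of-ratios scaling and 0.024 with quantile normalization, and ran between -0.19 and 0.14 with libraries left out, above 0 without the A549 malin or the H1299 empty-vector library. With median-of-ratios scaling SLC25A15 turned to 0.078 between A549 and the libraries labelled H2030, STK11 turned to 0.027 between H1299 and that pair, and 3 members passed between A549 and that pair. Leaving out libraries or lines gave 4559 to 9391 genes for A549 against H1299, 5726 to 9214 for A549 against the libraries labelled H2030 with 3 to 7 members, and 5226 to 8980 for H1299 against that pair. With 1 library left, a line is assumed to vary like the others. Depth limits OTC, ARG1 and NAGS. The causes of these changes were not tested.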

Other observations

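DDAH1 and GAMT, other genes of arginine use, differed between lines. DDAH1, which breaks down the nitric oxide synthase inhibitor asymmetric dimethylarginine, stood at 3.88 FPKM with malin and 2.86 FPKM with empty vector in A549, 24.5 and 25.2 FPKM in H1299, and 21.6 and 19.2 FPKM in the libraries labelled H2030. It was lower in A549 than in H1299 by 2.57 on the log2 scale (limma adjusted p = 5.05e-05). GAMT, the second enzyme of creatine synthesis, stood at 13.7 and 13.7, 10.6 and 9.91, and 49.9 and 56.1 FPKM in the same order. It was lower in A549 than in the libraries labelled H2030 by 1.88 on the log2 scale (limma adjusted p = 6.3e-05). Of the 4 tested nitric oxide, dimethylarginine and creatine genes, 1 was higher and 2 lower in each of the A549 comparisons, where 61.6% and 67% of all genes passed.

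CAD, which makes its own carbamoyl phosphate for pyrimidines in the cytosol, stood at 30.6 FPKM with malin and 31.1 FPKM with empty vector in A549, 32.1 and 33.5 FPKM in H1299, and 41.9 and 31.3 FPKM in the libraries labelled H2030. It did not pass between A549 and H1299, at -0.08 on the log2 scale (limma adjusted p = 0.641), where CPS1 differed by 2.76. Of the 9 tested genes of carbamoyl phosphate and pyrimidine use, 2 were higher and 2 lower in A549 than in H1299, 0 and 3 than in the libraries labelled H2030, and 1 and 3 in H1299 than in that pair. Of all genes 61.6%, 67% and 64.7% passed in these comparisons. Under median-of-ratios scaling the counts were 2 and 2 in each.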
